A study of Mus musculus with 6 samples.

Results

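Expression of the oxidative phosphorylation subunits was compared in the hippocampus of n-Braf and control mice. The genes were chosen by symbol: complex I subunits (Nduf names other than the Ndufaf assembly factors), Sdha to Sdhd of complex II, the Uqcr genes and Cyc1 of complex III, the Cox4 to Cox8 genes of complex IV, the Atp5 genes of complex V, and the mt-Nd, mt-Cytb, mt-Co and mt-Atp genes. Rows ending in -ps, which name pseudogenes, were excluded. The rule found 96 of the 20620 genes in the deposited table, 83 encoded in the nucleus and 13 in mitochondrial DNA, and all 96 passed the filter on low counts.

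Oxidative phosphorylation couples the oxidation of NADH and succinate to the synthesis of ATP. Complexes I to IV pass electrons to oxygen and all but complex II pump protons across the inner mitochondrial membrane, and complex V uses the proton gradient to make ATP. Mitochondrial DNA encodes core subunits of every complex except complex II, and its genes are transcribed as long precursors from which the single RNAs are cut. The other subunits are made from nuclear genes and imported, so each of the mixed complexes needs products of both genomes. In the hippocampus this pathway supplies most of the ATP that neurons spend on ion pumping and synaptic transmission.

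RNA of the hippocampus came from 6 males, all with a C57BL/6J background, and each gave 1 library. The 3 control mice had the genotype Braf Q241R Neo/+ and were 32, 32 and 31 weeks old in the order of their replicate numbers. The 3 n-Braf mice had the genotype Braf Q241R/+ ;CaMKII-Cre and were 33, 32 and 34 weeks old. The kinase BRAF acts in RAS-ERK signalling. All 6 mice therefore carried the Q241R allele, and the groups differed in the Neo cassette and the Cre transgene together, which cannot be told apart; wild-type mice were not analysed here. By the design text, the mutant is meant to be expressed in excitatory neurons once mature, so other cell types of the dissected tissue contribute RNA to every value.

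Assigned counts per library lay between 25227112 and 31832245, and the RNAs of the mitochondrial ribosome, mt-Rnr1 and mt-Rnr2, took 19.0% to 20.5% of them. Braf averaged 119 ± 4.18 CPM (counts scaled to a common library total) in control and 191 ± 12.1 CPM in n-Braf libraries (SD, n = 3), with an adjusted p of 0.0533 in edgeR's quasi-likelihood test. Excitatory neuron markers summed to 3989 to 4327 CPM in control and 4052 to 5283 CPM in n-Braf libraries, with 6 of 6 higher and a median log2 fold change of 0.17. Interneuron markers were higher for 6 of 6 (373 to 446 CPM in control and 434 to 439 CPM in n-Braf libraries). Choroid plexus markers summed to 3525 CPM in control 1, 2000 CPM in control 2 and 152 CPM in control 3, against 106 to 124 CPM in n-Braf libraries, and 10 of the 10 tested were lower in n-Braf. Ependymal markers were lower for 5 of the 5 tested (25.2 to 49.1 CPM in control and 14.9 to 18.7 CPM in n-Braf libraries). Oligodendrocyte markers summed to 1627 to 2105 CPM in control and 1383 to 1890 CPM in n-Braf libraries, with 6 of 6 lower. The remaining marker sets were mixed in direction. Higher in n-Braf were 4 of 6 astrocyte, 3 of 6 microglia, 5 of 6 endothelial, 1 of 6 pericyte and 3 of 6 hippocampal identity markers. Control 1 also had the highest share of the 18S ribosomal gene Rn18s-rs5, at 3.26% against 0.534% to 0.782% in the other libraries. The part of these differences in the results below was not tested.

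No oxidative phosphorylation gene passed the threshold of an adjusted p of 0.05 in either direction. Over all 20604 genes tested 0 passed as well, a background of 0%. At an unadjusted p under 0.05 there were 2 of the 96 members, Ndufa4 and mt-Nd5, against a background of 6.82% (1405 genes). The 3 n-Braf values lay entirely above the 3 control values for 4 members (mt-Nd4, mt-Nd5, Ndufv2 and Cyc1; background 6.09%) and entirely below them for 3 members (Ndufb11, Uqcrc2 and Atp5e; background 5.44%). For the 96 members together these shares were no higher than those of all genes. In either direction, groups did not overlap for 5 of the 83 nuclear members (6.02%) and 2 of the 13 mitochondrial members (15.4%). The share of all genes tested was 11.5%. The authors' deposited table also gave 0 of the 96 members an adjusted p under 0.05, with 0.945 for Ndufa4 as the smallest. The share of all genes under 0.05 in that table is not given here, so this count has no background.

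By genome, 39 of the 83 nuclear members had a positive log2 fold change (higher in n-Braf) and 44 a negative one. Their median was -0.0052, beside -0.0042 over all genes tested. Of the 13 mitochondrial members, 12 had a positive value and 1 a negative one; their median was 0.15. The mitochondrial RNAs come from shared precursors and share reads with nuclear copies, so their values are not independent of each other. The difference between the genomes was not tested.

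**Figure D1:**
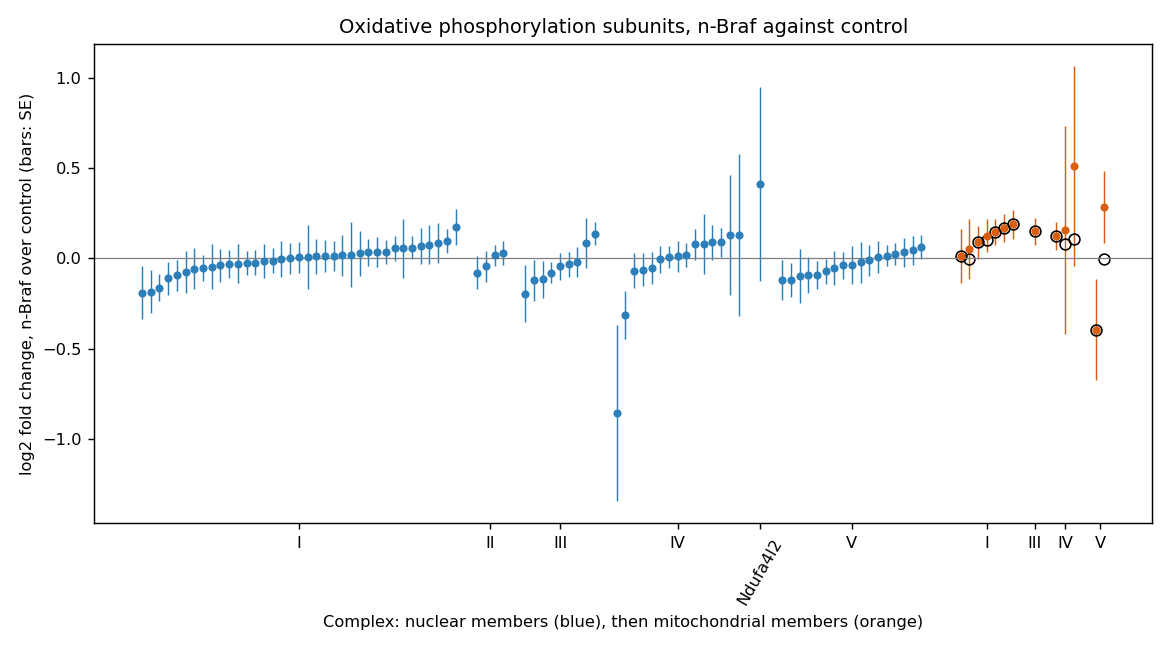
Log2 fold change of each of the 96 members (y axis, n-Braf over control; points with SE) by complex and genome on the x axis, nuclear members in blue and mitochondrial members in orange. Open circles give the mitochondrial values after the counts of pseudogene copies were added; nuclear points lie on both sides of 0, and the widest mitochondrial bars, those of mt-Co2 and mt-Co3, belong to genes whose reads were shared with copies.

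The mitochondrial rows first need a description of what they count. Nuclear DNA holds copies of mitochondrial DNA, and a read that fits a gene and its copy equally well is divided between them by RSEM, the program named in the submitters' processing notes. On chromosome 1 of GRCm38 (the assembly that mm10 names) a block of such pseudogenes lies on the minus strand, from Gm10222 at chr1:24612407-24612700 to Gm29216 at chr1:24615706-24616197. It holds copies of mt-Nd4l, mt-Nd3, mt-Co3, mt-Atp6 and mt-Co2, and part of mt-Co1, with 99.7% to 100% identity. A second block on chromosome 2 holds less similar copies of mt-Co2, mt-Co1 and mt-Nd2, with 95.9%, 97.6% and 96.7% identity.

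The following 80 bases of mt-Co2, which encodes a core subunit of cytochrome c oxidase, show why its reads cannot be assigned. The stretch at chrM:7461-7540 (plus strand) is identical in Gm28661 at chr1:24615038-24615117 (minus strand) and differs at 7 positions in Gm13341 at chr2:22587447-22587526 (minus strand). Capitals mark those 7 positions in the gene and in the chromosome 2 copy.
mt-Co2: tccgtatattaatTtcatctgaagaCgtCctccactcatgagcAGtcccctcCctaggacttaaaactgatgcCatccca
Gm28661: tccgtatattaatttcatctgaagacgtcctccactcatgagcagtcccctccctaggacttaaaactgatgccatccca
Gm13341: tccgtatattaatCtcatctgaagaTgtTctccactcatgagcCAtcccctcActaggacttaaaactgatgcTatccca
Counted from 1 at the 5′ end of the stretch, the substitutions from mt-Co2 to Gm13341 are T14C, C26T, C29T, A44C, G45A, C53A and C74T. A read from this stretch can be told from the chromosome 2 copy but not from the chromosome 1 copy.

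The first 80 bases of mt-Nd3, a complex I subunit gene, at chrM:9459-9538 (plus strand) differ from Gm28438 at chr1:24613040-24613119 (minus strand) at 1 position, shown in capitals.
mt-Nd3: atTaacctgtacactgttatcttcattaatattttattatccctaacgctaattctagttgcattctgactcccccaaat
Gm28438: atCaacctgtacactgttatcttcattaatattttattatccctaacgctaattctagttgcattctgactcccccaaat
The substitution is T3C, counted in the same way. Over the aligned 345 bases the identity of the copy is 99.7%, so only reads that cover a difference can be assigned. All these sequences are from the GENCODE M21 transcripts.

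The deposited counts followed these similarities. The mt-Co2 row held between 0.389% and 3.48% of the summed counts of mt-Co2 and its copies over the 6 libraries. The share was 1.64% to 9.86% for mt-Co3, 8.83% to 16.9% for mt-Atp6 and 18.6% to 24.6% for mt-Nd4l. These genes have a copy of 100% identity. The share was 60.7% to 78.9% for mt-Nd3, at least 98.3% for mt-Co1 and 99.86% to 99.96% for mt-Nd2. The sums of member and copies were whole numbers, within 0.03, in 6 of 6 libraries for mt-Co1, mt-Co2, mt-Co3, mt-Nd2, mt-Nd3 and mt-Nd4l, which is what reads divided within each of these groups would give. For mt-Atp6 this was so in 6 of 6 libraries only once mt-Atp8, whose end overlaps mt-Atp6, was added. Whether the reads of the fully identical stretches came from mitochondrial RNA or from a copy cannot be told apart.

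Adding the copies changed what these rows showed. mt-Co2 alone had 31.8, 50.4 and 5.72 CPM in controls 1 to 3 and 22.8, 29.3 and 46.1 CPM in n-Braf 1 to 3, with a log2 fold change of 0.16 ± 0.57 (SE). With Gm28661 and Gm13341 added it had 1605, 1450 and 1476 CPM in control and 1607, 1497 and 1691 CPM in n-Braf libraries. The log2 fold change was then 0.08 ± 0.08 (SE), so the low value of control 3 was a feature of the split and not of the sum.

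mt-Co3, another core subunit of cytochrome c oxidase, alone had 23.6, 62.3 and 106 CPM in control and 34.0, 145 and 94.8 CPM in n-Braf libraries, a log2 fold change of 0.51 ± 0.55 (SE). With Gm28437 it had 1442, 1438 and 1411 CPM in control and 1509, 1467 and 1637 CPM in n-Braf libraries. The log2 fold change became 0.10 ± 0.07 (SE), and the groups of the sum did not overlap (background 6.1% of genes higher without overlap in that fit), with an adjusted p of 0.848 in edgeR's quasi-likelihood test. Replicates that differed several-fold in the row alone thus lay close together in the sum.

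mt-Atp6, the subunit of complex V that forms the proton path, alone had 511, 365 and 316 CPM in control and 460, 382 and 609 CPM in n-Braf libraries, a log2 fold change of 0.28 ± 0.20 (SE). With Gm10925 it had 4009, 2997 and 3579 CPM in control and 3859, 3096 and 3611 CPM in n-Braf libraries, a log2 fold change of -0.0026 ± 0.12 (SE). Its direction therefore depended on whether the copy was counted, and for the row alone the value was 0.50 without control 1. For mt-Nd4l the log2 fold change went from 0.05 ± 0.17 to -0.0056 ± 0.11 (SE) with its copy added. The mt-Nd4l row alone gave 0.27 without control 1 and -0.12 without control 3. For mt-Nd3 the value went from 0.13 ± 0.09 to 0.10 ± 0.07 (SE). With all copies added, the mitochondrial values were positive for 10 members and negative for 3, the median was 0.10 and none was called. In that fit 3 of the 13 (23.1%) had groups without overlap in either direction, beside 11.5% of all genes tested.

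**Figure D2:**
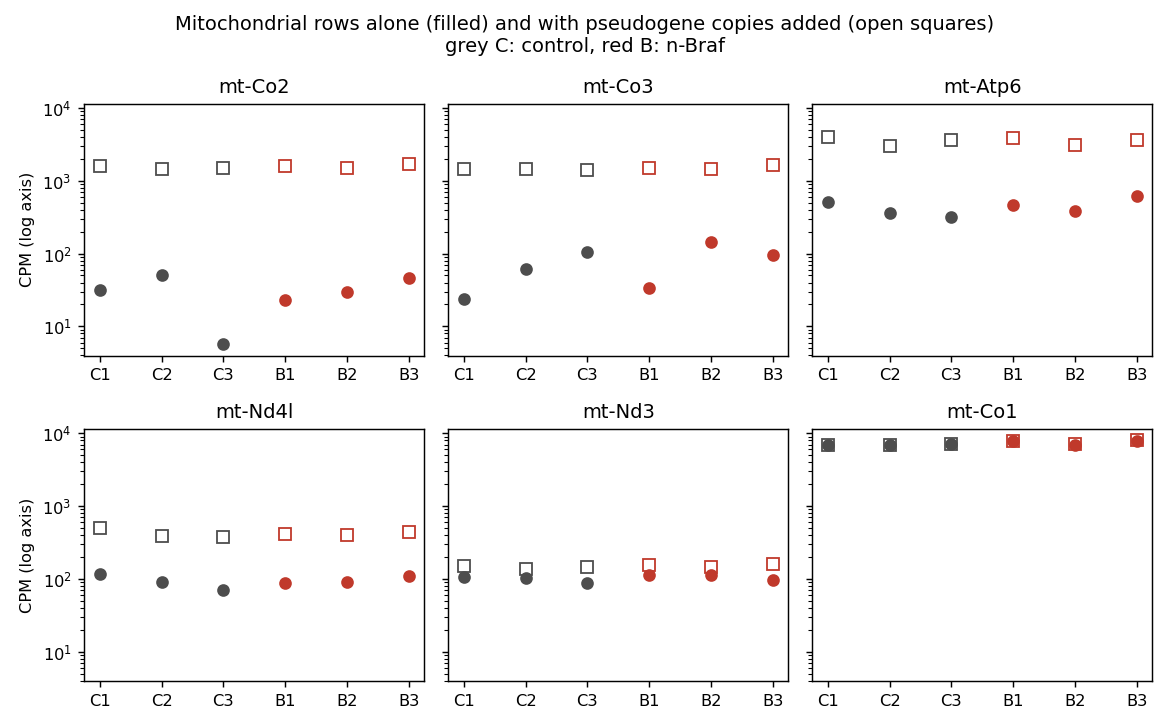
CPM on a log axis for 6 mitochondrial genes in each library (C, control, grey; B, n-Braf, red), for the gene's own row (filled circles) and after adding its pseudogene copies (open squares). For mt-Co2 and mt-Co3 the rows alone spread from 5.72 to 50.4 CPM and from 23.6 to 145 CPM, while the sums stay between 1411 and 1691 CPM; for mt-Co1 circles and squares coincide.

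The other 7 mitochondrial members have no copy on chromosome 1 in the table. They include mt-Nd2, with a copy on chromosome 2, and mt-Atp8, which shares reads with mt-Atp6, so these 2 rows are split as well. Of the 7, 6 were higher and 1 lower in n-Braf, and the median was 0.15. Among the complex I genes mt-Nd5, which encodes a proton-pumping core subunit (chrM:11742-13565), had 3479, 3267 and 3255 CPM in control and 4134, 3482 and 3768 CPM in n-Braf libraries. The groups did not overlap, but n-Braf 2 lay next to control 1. The log2 fold change was 0.19 ± 0.08 (SE), with an unadjusted p of 0.0493 and an adjusted p of 0.732 in edgeR's quasi-likelihood test.

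mt-Nd4, another proton-pumping subunit (chrM:10167-11544), had 2685, 2745 and 2781 CPM in control and 3220, 2792 and 3196 CPM in n-Braf libraries. Again the groups did not overlap and n-Braf 2 was next to the control values. The log2 fold change was 0.17 ± 0.08 (SE), adjusted p = 0.762 in the same edgeR fit. mt-Nd1, at the junction of the membrane and matrix arms of complex I, had 2389, 2249 and 2320 CPM in control and 2672, 2387 and 2642 CPM in n-Braf libraries. Its groups overlapped through n-Braf 2, with a log2 fold change of 0.15 ± 0.07 (SE).

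mt-Nd2, another membrane subunit of complex I, had 1586, 1360 and 1430 CPM in control and 1597, 1394 and 1662 CPM in n-Braf libraries, a log2 fold change of 0.09 ± 0.09 (SE). mt-Nd6 is the only member encoded on the minus strand of mitochondrial DNA (chrM:13552-14070), and its end overlaps that of mt-Nd5. It had 745, 486 and 506 CPM in control and 621, 542 and 590 CPM in n-Braf libraries, with a log2 fold change of 0.01 ± 0.15 (SE). Control 1 was the highest library and the other controls the lowest, and without control 1 the log2 fold change was 0.23. The kit keeps strand, but the strand setting of the counting is not given in the sources used here, so antisense reads cannot be set apart for mt-Nd6.

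mt-Cytb, the mitochondrial subunit of complex III, had 3052, 2983 and 2915 CPM in control and 3451, 3048 and 3431 CPM in n-Braf libraries, a log2 fold change of 0.15 ± 0.08 (SE). mt-Co1, the catalytic subunit of complex IV, had 6804, 6848 and 7067 CPM in control and 7732, 6934 and 7915 CPM in n-Braf libraries, a log2 fold change of 0.12 ± 0.08 (SE). For both genes n-Braf 1 and n-Braf 3 were above every control and n-Braf 2 was within the control range. mt-Atp8, a small membrane subunit of complex V, had 311, 138 and 136 CPM in control and 138, 147 and 159 CPM in n-Braf libraries. Its log2 fold change of -0.40 ± 0.28 (SE) rested on control 1 and was 0.11 without it.

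Summed over the 13 mitochondrial members with their copies, the share of assigned counts was 2.80%, 2.73% and 2.79% in controls 1 to 3 and 3.13%, 2.75% and 3.01% in n-Braf 1 to 3. The means were 2.78% ± 0.0375 in control and 2.96% ± 0.193 in n-Braf libraries (SD, n = 3). The groups overlapped, since n-Braf 2 lay between control 2 and control 3, and the spread of the n-Braf libraries was as large as the difference of the means. The n-Braf mouse that overlapped was 32 weeks old, the age of 2 of the controls, and the 2 with higher shares were 33 and 34 weeks old. No n-Braf mouse was younger than a control, so age and group cannot be told apart here. With age as a covariate in the fit of the rows alone, 7 of the 13 mitochondrial members were higher in n-Braf. Their median was 0.044 in place of 0.15, and the fit with copies added was not repeated with age. The excitatory neuron markers given above had a median of 0.17, and their part in the mitochondrial values was not tested. The mitochondrial ribosomal RNAs, which are transcribed from the same DNA, had log2 fold changes of 0.07 ± 0.09 (SE) for mt-Rnr1 and 0.04 ± 0.09 (SE) for mt-Rnr2. In bulk tissue, fewer cells of a type and less RNA per cell cannot be told apart.

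**Figure D3:**
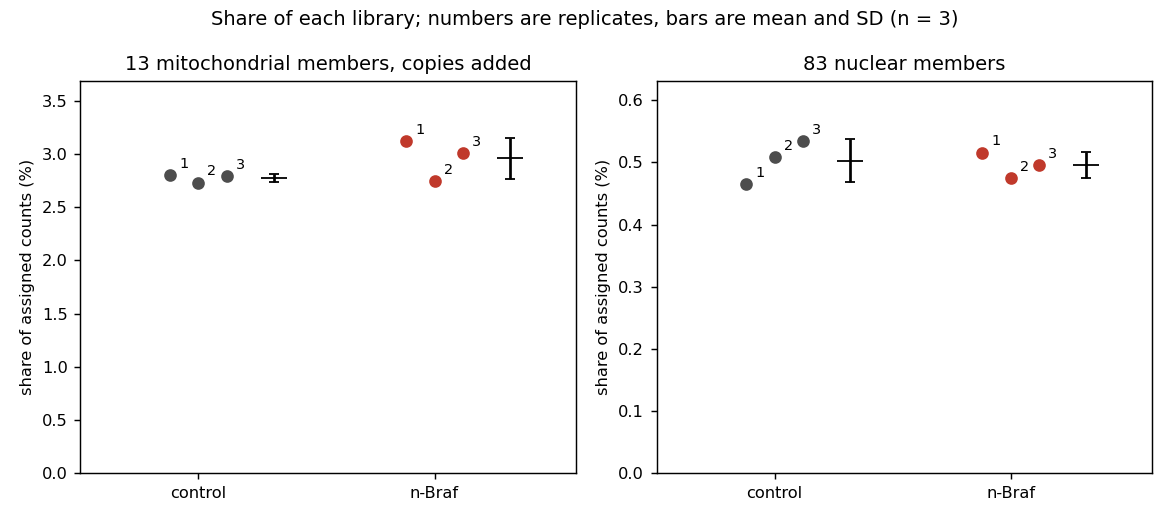
Share of assigned counts (%, axis from 0) taken by the 13 mitochondrial members with copies added (left) and the 83 nuclear members (right) in control (grey) and n-Braf (red) libraries; numbers are replicates, bars are mean and SD (n = 3). The mitochondrial share of n-Braf 1 and n-Braf 3 is above the 3 controls and that of n-Braf 2 is among them; the nuclear shares of the groups overlap.

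The 83 nuclear members together took 0.465%, 0.509% and 0.535% of counts in controls 1 to 3 and 0.516%, 0.475% and 0.496% in n-Braf 1 to 3. The lowest and the highest values were both controls. Of these members 79 had a mean of at least 5 CPM, and for 73 of the 79 the groups differed by less than 1.1-fold. Their log2 fold changes ran from -0.32 (Ndufa4) to 0.17 (Ndufa5) with a median SE of 0.09, so most differences were smaller than their error. The other 4 nuclear members, Cox4i2, Cox6a2, Cox6b2 and Ndufa4l2, averaged 0.448 to 1.11 CPM, and the lowest of the 79 averaged 10.2 CPM.

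Complex I, which oxidises NADH, had 37 nuclear members, 19 higher and 18 lower, and log2 fold changes from -0.19 to 0.17 around a median of 0.0045. Ndufb11, an accessory subunit of the membrane arm (chrX:20615326-20617619), had 45.7, 42.9 and 42.1 CPM in control and 40.8, 36.0 and 40.0 CPM in n-Braf libraries. Every n-Braf value was below every control value, with a log2 fold change of -0.16 ± 0.07 (SE) and an adjusted p of 0.747 in edgeR's quasi-likelihood test. Ndufv2, an iron-sulfur subunit of the NADH-oxidising module (chr17:66078638-66101559), had 58.1, 64.5 and 65.0 CPM in control and 68.9, 66.0 and 65.7 CPM in n-Braf libraries. The groups did not overlap, but control 2 and 3 and n-Braf 2 and 3 lay between 64.5 and 66.0 CPM, and the log2 fold change was 0.10 ± 0.07 (SE).

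Among the accessory subunits Ndufa5 had 45.1, 50.03 and 56.3 CPM in control and 54.7, 52.7 and 63.2 CPM in n-Braf libraries, a log2 fold change of 0.17 ± 0.10 (SE). Ndufa7 had 15.3, 12.1 and 12.8 CPM in control and 11.8, 11.05 and 12.5 CPM in n-Braf libraries, a log2 fold change of -0.18 ± 0.12 (SE). Both pairs of groups overlapped. Ndufa10, another accessory subunit, had 80.1, 102 and 105 CPM in control and 105, 91.5 and 106 CPM in n-Braf libraries, a log2 fold change of 0.07 ± 0.11 (SE) that was -0.04 without control 1. The core iron-sulfur subunit Ndufs1 had 95.5, 89.5 and 92.3 CPM in control and 90.8, 85.3 and 98.4 CPM in n-Braf libraries, a log2 fold change of -0.015 ± 0.07 (SE). The groups of both genes overlapped.

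Complex II, succinate dehydrogenase, is encoded wholly in the nucleus, and 2 of its 4 genes were higher and 2 lower, with a median of -0.014. Sdha, the flavoprotein that oxidises succinate (chr13:74322254-74350280), had 213, 220 and 226 CPM in control and 225, 222 and 221 CPM in n-Braf libraries. It was among the members with the smallest spread, and its log2 fold change was 0.02 ± 0.06 (SE). Sdhb, the iron-sulfur subunit, had a log2 fold change of 0.03 ± 0.07 (SE). The membrane anchors Sdhc and Sdhd had -0.05 ± 0.09 and -0.08 ± 0.09 (SE).

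Complex III, which passes electrons from ubiquinol to cytochrome c, had 9 nuclear members, 2 higher and 7 lower, from -0.20 to 0.14 with a median of -0.045. Cyc1, cytochrome c1 (chr15:76343523-76346260), had 37.7, 39.5 and 40.0 CPM in control and 43.0, 44.1 and 41.7 CPM in n-Braf libraries. Every n-Braf value was above every control value, with a log2 fold change of 0.14 ± 0.06 (SE) and an adjusted p of 0.769 in edgeR's quasi-likelihood test. Uqcrc2, a core subunit of the matrix side (chr7:120635176-120659524), had 60.5, 62.6 and 63.8 CPM in control and 60.02, 57.9 and 59.0 CPM in n-Braf libraries. The groups did not overlap, with control 1 next to n-Braf 1, and the log2 fold change was -0.08 ± 0.06 (SE).

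The other core subunit, Uqcrc1, had 97.7, 96.6 and 108 CPM in control and 102, 92.1 and 101 CPM in n-Braf libraries. Uqcrh, the hinge protein, had 68.9, 44.4 and 45.2 CPM in control and 42.3, 48.0 and 48.1 CPM in n-Braf libraries. Its log2 fold change of -0.20 ± 0.16 (SE) rested on the high value of control 1 and was 0.04 without that library.

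Complex IV, cytochrome c oxidase, had 15 nuclear members, 9 higher and 6 lower, from -0.86 to 0.13 with a median of 0.011. Ndufa4 is counted here because its product, first described in complex I, is a subunit of complex IV (chr6:11900292-11907497). It had 42.5, 30.3 and 33.8 CPM in control and 31.5, 25.2 and 28.9 CPM in n-Braf libraries, with control 2 within the n-Braf range. Its log2 fold change of -0.32 ± 0.13 (SE) had the smallest p of all members, 0.0411 unadjusted and 0.730 adjusted in edgeR's quasi-likelihood test. Without control 1 the log2 fold change was -0.17.

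**Figure D4:**
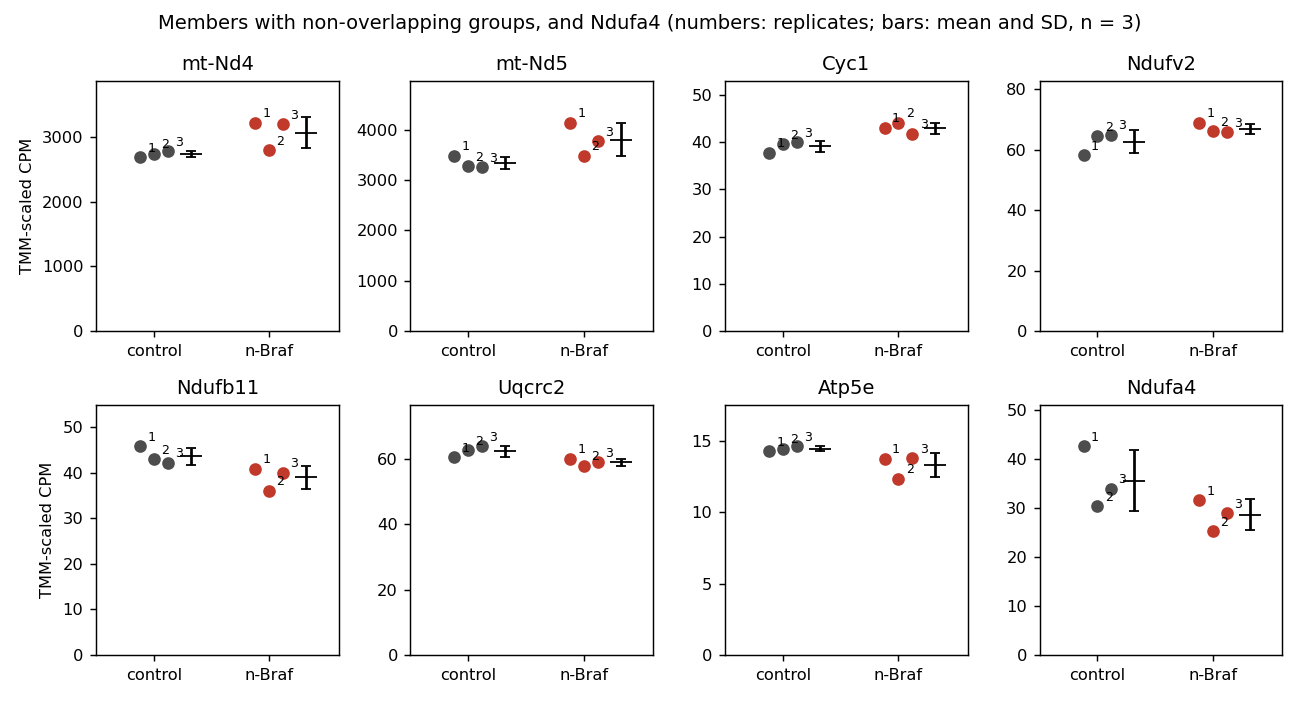
TMM-scaled CPM (axes from 0) of the 7 members whose groups did not overlap, and of Ndufa4, in control (grey) and n-Braf (red) libraries; numbers are replicates, bars are mean and SD (n = 3). In mt-Nd4 and mt-Nd5 the lowest n-Braf value is that of n-Braf 2, and in Ndufa4 the highest of all values is control 1 at 42.5 CPM.

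Several complex IV subunits have alternative genes, and in the Cox4, Cox6a and Cox6b pairs the hippocampus used mainly 1 of them. Cox4i1, the ubiquitous isoform of subunit 4, averaged 136 ± 5.05 CPM in control and 138 ± 8.504 CPM in n-Braf libraries (SD, n = 3), while Cox4i2 lay between 0.272 and 0.657 CPM. Cox6a1 lay between 44.1 and 53.9 CPM and Cox6a2, the heart and muscle isoform, between 0.751 and 1.605 CPM. Cox6b1 lay between 37.3 and 46.1 CPM and Cox6b2, the testis isoform, between 0.311 and 1.08 CPM.

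Cox6b2 had the lowest fitted log2 fold change of all members, -0.86 ± 0.49 (SE), with 0.82, 1.08 and 0.311 CPM in control and 0.344, 0.535 and 0.34 CPM in n-Braf libraries. Control 3 was the lowest of the 6, and without controls 1 and 2 the value was 0.38. Ndufa4l2, a paralog of Ndufa4 that is not counted in a complex here, lay between 0.315 and 1.001 CPM. Cox7a2 had 33.2 to 37.7 CPM and the related Cox7a2l 38.4 to 47.8 CPM. Groups overlapped for all of these genes. They also overlapped for Cox7b (-0.07 ± 0.10) and Cox8a (0.006 ± 0.06; log2 fold change, SE), which had no second isoform among the members. Cox6c, the nuclear member with the highest level per length, had 194, 283 and 314 CPM in control and 302, 236 and 300 CPM in n-Braf libraries, a log2 fold change of 0.08 ± 0.17 (SE) that was -0.10 without control 1.

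**Figure D5:**
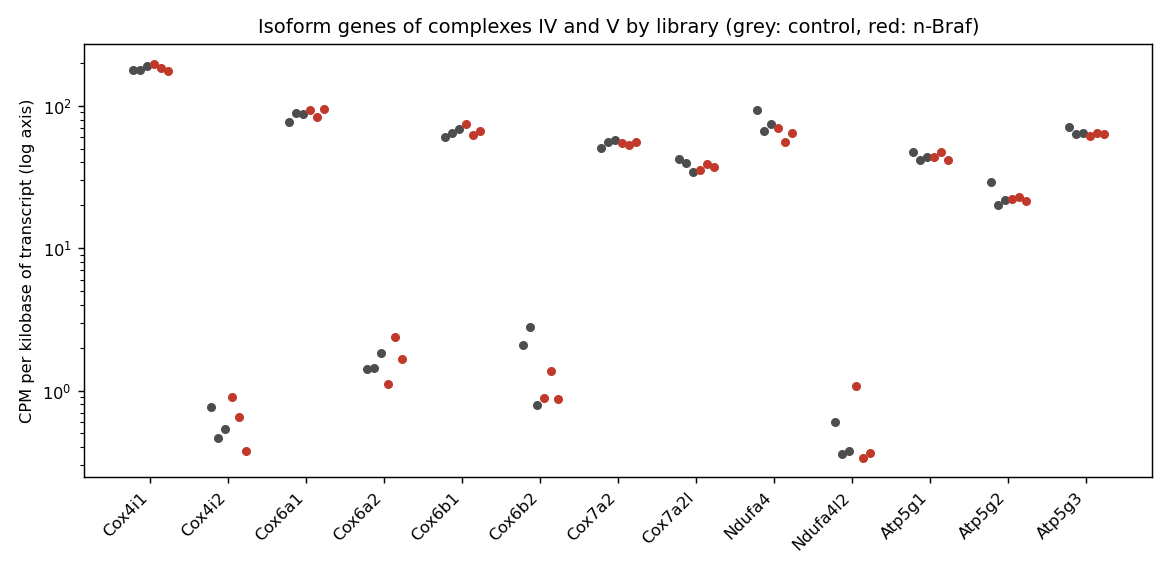
CPM per kilobase of transcript (log axis) of isoform genes of complexes IV and V, 1 point per library, control in grey and n-Braf in red. Cox4i2, Cox6a2, Cox6b2 and Ndufa4l2 lie far below their counterparts Cox4i1, Cox6a1, Cox6b1 and Ndufa4 in all 6 libraries, and Atp5g1, Atp5g2 and Atp5g3 lie closer together.

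Complex V, ATP synthase, had 17 nuclear members, 6 higher and 11 lower, from -0.12 to 0.06 with a median of -0.038. Its catalytic beta subunit gene Atp5b (chr10:128083273-128090391) had 410, 418 and 430 CPM in control and 422, 432 and 417 CPM in n-Braf libraries, a log2 fold change of 0.01 ± 0.06 (SE). Atp5e, the epsilon subunit of the central stalk (chr2:174461072-174464105), had 14.3, 14.4 and 14.6 CPM in control and 13.7, 12.3 and 13.8 CPM in n-Braf libraries. Every n-Braf value was below every control value, with a log2 fold change of -0.12 ± 0.09 (SE) and an adjusted p of 0.883 in edgeR's quasi-likelihood test.

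Atp5pb, the peripheral stalk subunit b, had 109, 99.3 and 98.4 CPM in control and 91.3, 90.2 and 106 CPM in n-Braf libraries, a log2 fold change of -0.09 ± 0.08 (SE). Atp5k, the small membrane subunit e, had 44.4, 34.5 and 39.9 CPM in control and 38.2, 32.1 and 39.1 CPM in n-Braf libraries, a log2 fold change of -0.12 ± 0.11 (SE). Both pairs of groups overlapped. The 3 genes Atp5g1, Atp5g2 and Atp5g3 encode the same mature c subunit of the rotor, and their log2 fold changes were 0.01 ± 0.09, -0.10 ± 0.15 and -0.07 ± 0.07 (SE). The value of Atp5g2 was 0.08 without control 1. Nuclear members can share reads with processed pseudogenes too, but Atp5g1, Atp5g2, Atp5h, Atp5l, Atp5pb and Ndufs5 kept 93.1% to 99.7% of the summed counts, and adding their copies changed no direction.

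Levels per kilobase of transcript give only a rough comparison between genes. For the mitochondrial genes the length is that of the annotated gene. The 2 of complex V, mt-Atp8 and mt-Atp6, overlap at their ends and share reads, yet had 840 and 5176 CPM per kilobase. Averaged over the 6 libraries and with copies added, the median mitochondrial level was 1451 CPM per kilobase for complex I, 2272 for complex IV and 3008 for complex V, and mt-Cytb had 2751. The nuclear medians were 41.0 for complex I, 29.9 for complex II, 60.6 for complex III, 68.7 for complex IV and 79.2 for complex V. The highest nuclear levels were 540 CPM per kilobase for Cox6c and 268 for Atp5h. The lowest mitochondrial level, 428 CPM per kilobase for mt-Nd3, was thus below that of Cox6c and above that of every other nuclear member.

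The nuclear members also differed together between libraries of the same group. Of the 83, 31 had their lowest value in n-Braf 2 and 25 in control 1, and 29 had their highest value in control 3. These are 37.3%, 30.1% and 34.9% of the members, where the same libraries held the lowest or highest value for 15.4%, 20.98% and 13.8% of all genes tested. The 40 shorter nuclear members (315 to 732 bases, at least 5 CPM) had a median within-group SD of 0.13 on the log2 scale. The 39 longer ones (745 to 3171 bases) had 0.09. The members also differ in level, and length was not tested apart from it. Against the mean of the other controls, control 1 differed by -0.75 for Ndufb1, -0.69 for Ndufc1 and -0.62 for Cox6c on the log2 scale. For Uqcrh the difference was 0.62. Low values in control 1 were not particular to short transcripts, and Ndufb1, with 1153 bases, is among the longer members. Control 1 was below the mean of the other controls for 22 of the 40 shorter and 29 of the 39 longer members.

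Promoters gave a feature that the choice by symbol did not use. Of the 83 nuclear members 67 matched a RefSeq promoter window on GRCm38.p6, 300 bases long and ending 50 bases after the annotated start. Exact matches on either strand were counted for 3 motifs: GCGCATGCG for NRF1, a regulator of respiratory genes; CCGGAAGT for ETS factors such as GABP; and AAGATGGCG for YY1. NRF1 letters were present for 8 of 67 members (11.9%) and for 1.95% of 27025 genes. The latter are all genes with a window, including genes not tested here, so the gene sets compared are unlike in expression. YY1 letters were present for 7 members (10.4%) and 1.64% of genes, and ETS letters for 5 members (7.46%) and 4.31% of genes. The window of Uqcr11 held both the NRF1 and the ETS letters.

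One promoter of each of the more frequent motifs is shown, with capitals at the match. That of Uqcrc1 lies at chr9:108936398-108936697 (plus strand), where the NRF1 letters match on both strands in overlap. That of Atp5j, a coupling subunit of complex V, lies at chr16:84834927-84835226 (minus strand) and is 1 of 2 windows for this gene; the other holds none of the 3 motifs.
Uqcrc1: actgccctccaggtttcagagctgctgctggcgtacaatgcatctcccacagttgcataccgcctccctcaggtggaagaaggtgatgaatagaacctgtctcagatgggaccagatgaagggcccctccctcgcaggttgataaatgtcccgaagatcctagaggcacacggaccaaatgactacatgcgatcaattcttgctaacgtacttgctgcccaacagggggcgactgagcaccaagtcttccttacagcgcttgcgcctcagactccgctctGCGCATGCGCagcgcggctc
Atp5j: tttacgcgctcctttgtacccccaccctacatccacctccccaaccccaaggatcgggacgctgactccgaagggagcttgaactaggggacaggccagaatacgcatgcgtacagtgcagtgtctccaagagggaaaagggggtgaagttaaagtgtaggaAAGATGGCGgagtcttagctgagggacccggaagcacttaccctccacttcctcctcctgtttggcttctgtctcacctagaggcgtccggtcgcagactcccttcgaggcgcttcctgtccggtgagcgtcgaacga
A match describes letters only and no binding was measured. The log2 fold changes of these genes were -0.03 ± 0.07 (SE) for Uqcrc1 and -0.012 ± 0.09 (SE) for Atp5j.

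The genes that build and maintain the complexes had no call in either direction either. Of 18 regulators of nuclear respiratory genes 9 were higher and 9 lower, with a median of -0.011, and Sp1, a general activator, had 33.2, 28.0 and 29.7 CPM in control and 26.2, 26.2 and 26.7 CPM in n-Braf libraries. Its log2 fold change was -0.20 ± 0.08 (SE), adjusted p = 0.730 in edgeR's quasi-likelihood test. Gabpb2, a GABP subunit, had -0.22 ± 0.10 and Nfe2l2, a regulator of antioxidant genes, -0.34 ± 0.17 (log2 fold change, SE). Of 33 genes for mitochondrial transcription, RNA processing and DNA maintenance 13 were higher and 20 lower, with a median of -0.014. The termination factor gene Mterf1a had 0.35 ± 0.17, the poly(A) polymerase gene Mtpap 0.14 ± 0.09 and the methyltransferase gene Tfb1m -0.32 ± 0.22 (log2 fold change, SE). Of 78 mitochondrial ribosomal protein genes 38 were higher and 40 lower, with a median of -0.0085. The 3 with the smallest p were Mrpl14 at -0.42 ± 0.20, Mrpl22 at -0.25 ± 0.13 and Mrpl18 at 0.14 ± 0.09 (log2 fold change, SE), each with groups that did not overlap. In either direction 8 of the 78 (10.3%) had groups without overlap, beside 11.5% of all genes tested.

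Of 52 assembly factors 29 were higher and 23 lower, with a median of 0.0057. Atpaf1, which helps to assemble ATP synthase, had 28.3, 29.5 and 31.3 CPM in control and 33.5, 32.3 and 37.0 CPM in n-Braf libraries. Ttc19, a complex III factor, had 77.2, 82.5 and 83.6 CPM in control and 89.8, 88.0 and 92.0 CPM in n-Braf libraries. Neither group pair overlapped, and the log2 fold changes were 0.21 ± 0.08 and 0.15 ± 0.06 (SE), both with an adjusted p of 0.713 in edgeR's quasi-likelihood test. Ndufaf8, a complex I factor, had 6.53, 6.28 and 7.09 CPM in control and 5.32, 4.97 and 6.23 CPM in n-Braf libraries. Its groups did not overlap in the other direction. The log2 fold change was -0.27 ± 0.14 (SE), with an adjusted p of 0.802 in the same edgeR fit. Counting both directions, 4 of the 52 assembly factors (7.69%) had groups without overlap, beside 11.5% of all genes tested.

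Of 48 import and inner membrane genes 27 were higher and 21 lower, with a median of 0.030. Vdac1, the outer membrane channel, had 135, 140 and 143 CPM in control and 163, 151 and 155 CPM in n-Braf libraries, without overlap. Its log2 fold change was 0.16 ± 0.06 (SE), adjusted p = 0.676 in edgeR's quasi-likelihood test. Timm8b, an import chaperone, had 0.15 ± 0.09 and Slc25a4, an ADP/ATP carrier, 0.12 ± 0.07 (log2 fold change, SE), with overlapping groups. Groups without overlap in either direction were found for 6 of the 48 (12.5%), beside 11.5% of all genes tested. Of 14 genes for cytochrome c and the synthesis of ubiquinone 10 were higher and 4 lower, with a median of 0.012. Coq8b, a kinase-like protein of ubiquinone synthesis, had a value of -0.29 ± 0.13 and Coq2, an earlier enzyme of that pathway, 0.11 ± 0.06 (log2 fold change, SE), both with groups that did not overlap. This held for 3 of the 14 genes (21.4%), beside 11.5% of all genes tested. Pdss1, which acts in making the side chain of ubiquinone, had 0.10 ± 0.13.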

How the data were processed

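Hippocampal RNA-seq libraries of 3 control and 3 n-Braf mice were grouped by the genotype in the labels. Per the submitters' processing notes, the authors used bcl2fastq 2.20, fastp 0.20.1, STAR, RSEM and edgeR 3.36.0 with the build mm10; STAR and RSEM versions, annotation release and strand setting are not given in the sources used here. In the deposited table each gene has unnormalized expected counts, with the authors' log2 fold change and log2 CPM and their p-values; low genes had been removed by the authors. Expected counts were rounded to integers. Genes were kept by filterByExpr (minimum count 10) in edgeR 4.0.16 (R 4.3.3), scaled by TMM and tested with edgeR's quasi-likelihood test on group, with Benjamini-Hochberg adjustment over 20604 genes tested and a threshold of 0.05. With 3 libraries per group, an adjusted p that misses the threshold does not show that values are equal.

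Pseudogene copies in the table were found with blastn 2.17.0 in GENCODE M21 transcripts (at least 95% identity over at least 50% of the copy), and copies not in the table could not be added. Coordinates come from the same release on GRCm38. Lengths are those of the transcript with the longest coding sequence. Named genes were all mitochondrial members, the 3 members with the smallest p and the highest-level member of each nuclear complex, isoform pairs, and the 3 genes with the smallest p of each other list; Ndufs1, Ndufv2, Ndufb1, Ndufc1 and Atp5j were named after their values were seen. The members and lists were chosen with earlier results of these data known. Over genes, correlations of the deviations of same-numbered mice lay within the range of those of differently numbered mice. The gene test was also run on counts simulated from its own fit, with no changes or with changes larger than those of most members. That run cannot show how the test treats differences as small as theirs. Alternatives were other scalings, DESeq2 1.42.0, limma-voom (limma 3.58.1), filters, a replicate block, age, leaving out libraries, and, chosen after seeing the data, adding the copies, leaving out controls 1 and 2 together and quasi-likelihood without legacy settings.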

Additional observations from a re-analysis of the deposited data

How the results depend on the processing

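No alternative called an oxidative phosphorylation gene at an adjusted p of 0.05. The count over all genes, 0 in edgeR's quasi-likelihood test with 1405 genes at an unadjusted p under 0.05, was 79 with DESeq2, 2 at an adjusted p of 0.1, 1 without legacy settings, 2 with copies added and 3 with controls 1 and 2 left out together. Leaving out 1 library at a time gave 0 to 82, with 82 without control 3; the cause was not tested. The nuclear median was -0.0646 with controls 1 and 2 left out, a fit that gives the lone control 3 the spread of the n-Braf group, and ranged from -0.0347 to 0.0317 when 1 library was left out. It was -0.027 with library size alone (27 of 83 members higher), a scaling that moved the median of all genes to -0.023. The mitochondrial median ranged from 0.0833 to 0.179 when 1 library was left out and was 0.044 with age as a covariate.

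With the replicate block 0 genes were called, and the medians were -0.0044 for nuclear and 0.145 for mitochondrial members. Same-numbered libraries had correlations of deviations of 0.165, -0.0441 and -0.0189, and differently numbered ones lay between -0.216 and 0.240. With so few libraries these values cannot settle whether the numbers pair the samples. Among single values, mt-Co2 was 0.80 without control 2 and 2.51 without controls 1 and 2, mt-Co3 was 1.09 without control 3 and 1.27 with age as a covariate, and Cox6b2 was 0.38 without controls 1 and 2. Expected counts carry no error of the split between near-identical genes.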

Other observations

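The 3 pseudogene rows that the symbol rule excluded held few counts. Atp5pb-ps had 9.35 to 35.7 expected counts per library, Ndufs5-ps 8.27 to 17.0 and Cox5b-ps 15.2 to 31.0, with the highest value of Atp5pb-ps and of Cox5b-ps in control 1.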
